A study of Homo sapiens with 6 samples.

Results

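The U5 small nuclear ribonucleoprotein (U5 snRNP) is the particle of the spliceosome that holds the exon ends during both steps of splicing. The genes described here encode 9 of its proteins and assembly factors, SNRNP200, PRPF8, EFTUD2, SNRNP40, PRPF6, DDX23, TXNL4A, CD2BP2 and AAR2. They were chosen by name, as U5 proteins and assembly factors reported to bind NRDE2, and each matched 1 of the 25365 rows of the deposited gene table. All 9 passed the filter on low values.

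NRDE2 is a nuclear protein known to bind the RNA helicase MTREX. The 6 RNA-seq libraries came from MDA-MB-231, a human line of triple-negative breast cancer. Of these, 3 were from cells given an siRNA against NRDE2 (si-NRDE2-2) and 3 from cells given a control siRNA (si-Control). Every culture received 20 nM siRNA by lipofection with RNAiMAX and was lysed for RNA 48 h later, so the control cells also went through transfection. Only 1 siRNA against NRDE2 was used, and effects of its sequence on other transcripts cannot be told apart from loss of NRDE2 here. The labels do not say whether the 3 replicates of a group were separate cultures, and the p-values cover only the spread between these libraries, which may be technical.

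In the U5 particle, PRPF8 is the scaffold that lines the catalytic centre, and the helicase SNRNP200 (Brr2 in yeast) and the GTPase EFTUD2 (Snu114 in yeast) are bound to it. SNRNP200 unwinds the U4/U6 duplex, the step that frees U6 for catalysis. Before that, U5 joins U4/U6 to form the tri-snRNP, in which PRPF6 bridges the particles. Inherited mutations of PRPF8, SNRNP200 and PRPF6 are known to cause retinitis pigmentosa, and those of EFTUD2 and TXNL4A cause craniofacial syndromes.

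Values are FPKM as deposited, a level per transcript length and per library depth, which permits levels of different genes to be set side by side. FPKM gives a share of each library, so a change in total RNA per cell cannot be seen in it. The estimated depth was 41000000 to 52100000 fragments in si-NRDE2-2 libraries and 49400000 to 56400000 in si-Control libraries. At that depth the least covered member, AAR2, had an estimated 1470 to 1990 fragments per library, and PRPF8 had 15300 to 26800. Each difference is the log2 of si-NRDE2-2 over si-Control on the log2(FPKM + 0.1) scale with its standard error (SE), from limma fitted to 11782 genes with Benjamini-Hochberg adjustment over all of them. Libraries of different groups differed with an SD of 0.30 to 0.32 (log2, over genes), and those of the same group with an SD of 0.11 to 0.17. No library stood against its label. NRDE2 had 0.230, 0.234 and 0.229 FPKM in si-NRDE2-2 cells, against 4.39, 4.45 and 3.80 FPKM in si-Control cells, a ratio of means of 0.0548. All 6 markers of mesenchymal triple-negative lines were detected, with a summed level of 2314 to 2357 FPKM in si-NRDE2-2 cells and 2184 to 2349 FPKM in si-Control cells. By limma's adjusted p, CD44 and ANXA1 were higher (log2 fold changes 0.26 ± 0.04 and 0.34 ± 0.05), AXL was lower (-0.33 ± 0.04), and VIM, CAV1 and EGFR did not pass. Of the receptor genes that define the triple-negative class, ESR1 and PGR were at most at 0.00356 and 0.00441 FPKM in any library. The third, ERBB2, was present at 10.3 to 11.1 FPKM in si-NRDE2-2 cells and 12.6 to 12.9 FPKM in si-Control cells, and was lower (-0.27 ± 0.05, limma adjusted p = 0.0011). The class is defined by protein staining and ERBB2 amplification, which were not measured here. The 7 luminal markers that hold these 3 genes summed to 20.8 to 21.1 FPKM in si-NRDE2-2 cells and 23.1 to 23.8 FPKM in si-Control cells, with EPCAM at 7.43 to 8.04 FPKM in si-NRDE2-2 cells and 7.77 to 8.45 FPKM in si-Control cells. The summed level of 8 immune, endothelial and fibroblast markers was 2.27 to 2.56 FPKM in si-NRDE2-2 cells and 1.55 to 1.81 FPKM in si-Control cells. PECAM1 (0.958 to 1.18 with si-NRDE2-2, 0.525 to 0.688 with si-Control) and LYZ (0.687 to 0.913, 0.402 to 0.641) were higher. LUM was lower (0.329 to 0.358, 0.378 to 0.472), and the other markers overlapped between groups. Of the 8 markers 0 passed the filter on low values, and the part of these markers in the results was not tested.

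The genes of the U5 particle did not move together. Of the 9 members, 3 were lower with si-NRDE2-2 at an adjusted p under 0.05 (SNRNP200, PRPF8 and PRPF6), 2 were higher (EFTUD2 and CD2BP2) and 4 did not pass. Among all tested genes 23.0% were lower and 20.9% higher by the same threshold. The groups did not overlap for 8 of the 9 members, against 53.5% of all tested genes. The median log2 fold change of the members was 0.04, against -0.02 over all tested genes. In size, 1 change stood out from this background, that of SNRNP200, and the number of members called did not. Groups without overlap were more common among the members than among all tested genes. That share was not compared with genes of like level.

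**Figure D1:**
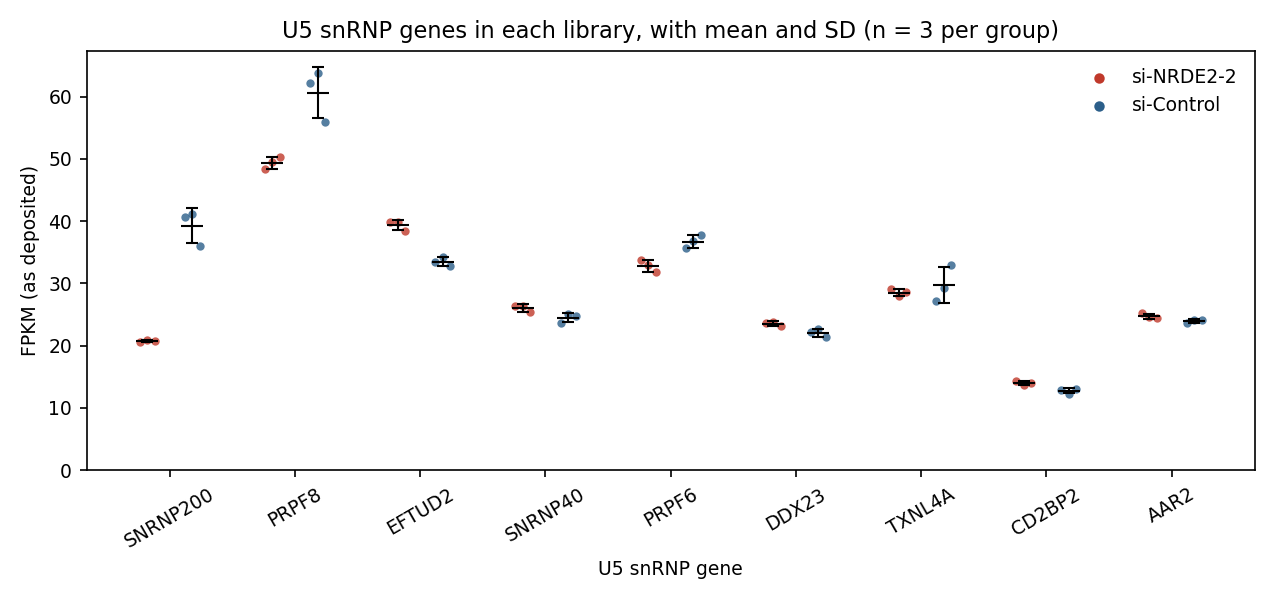
FPKM of the 9 U5 snRNP genes (vertical axis) in each library, with si-NRDE2-2 in red and si-Control in blue. Points are libraries and bars give the mean and SD (n = 3 per group). SNRNP200 sits at 20.6 to 20.9 FPKM with si-NRDE2-2 and at 36.1 to 41.2 FPKM with si-Control.

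The promoters of the 3 genes that fell and of EFTUD2, which rose the most, are shown so that they can be compared at the DNA level. The other called gene that rose, CD2BP2, is not printed, and its matches are counted below. The windows printed are the 250 bases upstream of the RefSeq transcription start on GRCh38.p14, 5′ to 3′ on the gene's strand, whereas the deposited values come from hg19. For EFTUD2 the downstream one of a pair of listed starts is given. Capitals mark CCGGAAG (the core bound by ETS factors), GGGCGG (the GC box core) or CCAAT on either strand.
SNRNP200, chr2:96305547-96305796, minus strand: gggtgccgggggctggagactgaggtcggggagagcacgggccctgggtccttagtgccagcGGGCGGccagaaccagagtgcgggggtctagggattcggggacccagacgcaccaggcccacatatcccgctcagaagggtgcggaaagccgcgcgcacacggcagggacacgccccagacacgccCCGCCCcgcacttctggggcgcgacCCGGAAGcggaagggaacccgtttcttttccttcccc
PRPF8, chr17:1684868-1685117, minus strand: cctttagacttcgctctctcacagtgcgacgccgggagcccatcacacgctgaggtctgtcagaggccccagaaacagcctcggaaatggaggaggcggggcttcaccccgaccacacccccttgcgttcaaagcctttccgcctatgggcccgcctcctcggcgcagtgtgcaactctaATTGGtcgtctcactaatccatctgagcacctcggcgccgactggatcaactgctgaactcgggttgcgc
PRPF6, chr20:63980882-63981131, plus strand: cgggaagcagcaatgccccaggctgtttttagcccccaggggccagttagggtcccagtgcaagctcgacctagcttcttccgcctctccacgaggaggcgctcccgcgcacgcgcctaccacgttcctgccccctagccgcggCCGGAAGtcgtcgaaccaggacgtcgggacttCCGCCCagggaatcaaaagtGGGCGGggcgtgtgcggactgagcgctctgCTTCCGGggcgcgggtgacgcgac
EFTUD2, chr17:44899369-44899618, minus strand: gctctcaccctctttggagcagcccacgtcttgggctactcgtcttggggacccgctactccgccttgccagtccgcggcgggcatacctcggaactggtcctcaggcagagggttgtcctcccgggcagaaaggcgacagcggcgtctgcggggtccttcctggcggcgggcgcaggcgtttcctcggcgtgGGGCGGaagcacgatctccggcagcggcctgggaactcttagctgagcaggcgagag

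These 4 windows had a GC content of 61.2% to 70.0%. Some genes have several listed starts, and a gene was counted where any of its windows held the letters. CCGGAAG occurred in 4 of the 9 members (SNRNP200, PRPF6, CD2BP2 and AAR2) and in 10.2% of all 27305 RefSeq genes, counted alike over windows of the same length. Of these 4 members, SNRNP200 and PRPF6 fell, CD2BP2 rose and AAR2 was not called. In SNRNP200 CCGGAAG began 37 bases before the start. The shares given here are over all RefSeq genes, expressed in these cells or not. Shares over the tested genes were not computed, so whether the members differ from other expressed genes was not tested. GGGCGG occurred in 7 of the 9 members and in 46.2% of all genes, and CCAAT in 4 members and in 37.0% of all genes. By window, 8 of the 12 windows of the members held GGGCGG, against 42.6% of all 35116 windows, and EFTUD2 held it at the downstream start alone. The YY1 core ATGGCGG had no match in the 4 windows printed, and neither the NRF1 core GCATGCGC nor the TATA box TATAAA had one. Downstream of the start, outside these windows, PRPF8 held the YY1 core at base 40. With bases just past the start included, 3 of the 12 member windows held it (CD2BP2, PRPF8 and SNRNP40), against 5.55% of all windows. No sequence of those searched marked all 3 genes that fell: PRPF8 shared neither CCGGAAG nor GGGCGG with SNRNP200 and PRPF6. A match is only a match of letters, and binding was not measured.

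SNRNP200, the helicase that unwinds U4/U6, fell the most of the 9. It had 20.6, 20.9 and 20.8 FPKM in si-NRDE2-2 replicates 1, 2 and 3, against 40.6, 41.2 and 36.1 FPKM in si-Control replicates 1, 2 and 3. The lowest control library was above the highest si-NRDE2-2 library by a wide margin, and the si-NRDE2-2 libraries were nearly equal. The mean was 20.8 ± 0.125 FPKM with si-NRDE2-2 and 39.3 ± 2.80 FPKM with si-Control (SD, n = 3 each), a ratio of 0.529. The log2 fold change was -0.91 ± 0.05 (SE) with a 95% interval of -1.03 to -0.80 and a limma adjusted p = 3.7e-07. It was the 24th lowest of the 11782 log2 fold changes, so 0.195% of tested genes lay below it. Among the 3732 genes with a mean of at least 20 FPKM, 5 had a log2 fold change at least as low, SNRNP200 included.

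PRPF8, the scaffold of the catalytic centre, fell less. It had 48.4, 49.4 and 50.2 FPKM in si-NRDE2-2 replicates 1, 2 and 3, against 62.2, 63.7 and 56.0 FPKM in si-Control replicates 1, 2 and 3. The groups did not overlap, and si-Control replicate 3 was the lowest control, as it was for SNRNP200. On the log2 scale the difference was -0.29 ± 0.05, with a 95% interval of -0.41 to -0.18 and a limma adjusted p = 0.0011. Without si-Control replicate 3 it was -0.35 for PRPF8 and -0.97 for SNRNP200.

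SNRNP200 and PRPF8 have the longest mRNAs of the 9, with 7165 and 7445 bases and 44 and 41 introns in the annotated transcript (GENCODE release 29). Among the 1127 tested genes with a transcript of at least 7000 bases, 19.8% were lower and 17.7% higher. Their median log2 fold change was -0.02, the same to 2 decimals as over all genes. Of these 1127 genes 4 were at least as low as SNRNP200, itself included, against 20 of the 10463 with shorter transcripts. With trends on GC content and length removed from each library, the log2 fold change was -0.89 ± 0.03 for SNRNP200 and -0.26 ± 0.03 for PRPF8. Whether transcript length had a part in these changes was not tested.

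EFTUD2, the GTPase that regulates SNRNP200 within the particle, moved the other way. It had 39.9, 39.9 and 38.5 FPKM in si-NRDE2-2 replicates 1, 2 and 3, against 33.5, 34.2 and 32.8 FPKM in si-Control replicates 1, 2 and 3. Every si-NRDE2-2 library was above every control library. The log2 fold change was 0.23 ± 0.04, with a 95% interval of 0.14 to 0.32 and a limma adjusted p = 9.4e-04.

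The 3′ UTR of 1 annotated transcript per gene, that with the longest coding sequence, was searched for GACGTA and the related strings GACAGTA and GACTGTA. Among the members 1 had a match in that transcript, EFTUD2, and other transcripts of the other members were not searched. These letters were picked in earlier work from the same fold changes, as common in genes that rose with si-NRDE2-2, so they are no independent evidence. They occurred in 17.2% of the 11022 tested genes with an annotated 3′ UTR, and GACGTA in 3.73%. The site is shown with the match in capitals, and lay at position 911 of a 3′ UTR of 1331 bases in 1 of 7 coding transcripts of the gene in GENCODE release 29.
EFTUD2 3′ UTR site: tgccatcctcttGACGTAatcgctgtacat

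Whether that transcript is the one expressed in these cells was not tested, since the table has 1 value per gene.

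SNRNP40, a WD40-repeat protein of the U5 core, did not pass the threshold. It had 26.3, 26.5 and 25.4 FPKM in si-NRDE2-2 replicates 1, 2 and 3, against 23.7, 25.1 and 24.8 FPKM in si-Control replicates 1, 2 and 3. The groups were apart by less than the range within either. On the log2 scale the difference was 0.09 ± 0.04, with a 95% interval of -0.01 to 0.18 and a limma adjusted p = 0.121.

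Of the proteins that join U5 to the other snRNPs, PRPF6 fell slightly. This bridge between U5 and U4/U6 had 33.7, 32.9 and 31.9 FPKM in si-NRDE2-2 replicates 1, 2 and 3, against 35.7, 36.8 and 37.8 FPKM in si-Control replicates 1, 2 and 3. The groups did not overlap. The log2 fold change was -0.16 ± 0.04, with a 95% interval of -0.26 to -0.07 and a limma adjusted p = 0.0112. Without si-NRDE2-2 replicate 3 the call was lost (adjusted p = 0.0538, log2 fold change -0.14).

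DDX23 and TXNL4A act as the tri-snRNP enters the spliceosome, and neither passed. DDX23, the helicase that displaces U1 from the 5′ splice site (Prp28 in yeast), had 23.6, 23.9 and 23.2 FPKM in si-NRDE2-2 replicates 1, 2 and 3, against 22.2, 22.6 and 21.4 FPKM in si-Control replicates 1, 2 and 3. Its groups did not overlap, but the log2 fold change of 0.09 ± 0.04 had a limma adjusted p = 0.0896. TXNL4A, a thioredoxin-like protein that leaves as the spliceosome is activated (Dib1 in yeast), had 29.04, 27.9 and 28.6 FPKM in si-NRDE2-2 replicates 1, 2 and 3, against 27.1, 29.2 and 32.9 FPKM in si-Control replicates 1, 2 and 3. This was the 1 member whose groups overlapped. On the log2 scale the difference was -0.06 ± 0.06, with a 95% interval of -0.19 to 0.08 (limma adjusted p = 0.498). Its sign changed without si-Control replicate 3 (0.02).

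The assembly factors leave before U5 acts in splicing. CD2BP2, which binds TXNL4A and PRPF6 in the free particle, had 14.4, 13.7 and 13.99 FPKM in si-NRDE2-2 replicates 1, 2 and 3, against 12.9, 12.3 and 13.0 FPKM in si-Control replicates 1, 2 and 3. The groups did not overlap, and the log2 fold change was 0.14 ± 0.05 with a 95% interval of 0.03 to 0.24 (limma adjusted p = 0.0332). That call rested on single libraries: the adjusted p was 0.0630 and 0.150 without si-Control replicate 1 or 2, and 0.0613, 0.0690 and 0.0767 without si-NRDE2-2 replicate 1, 2 or 3. AAR2, which in yeast holds Prp8 in an immature particle until Brr2 binds, had 25.2, 24.5 and 24.4 FPKM in si-NRDE2-2 replicates 1, 2 and 3, against 23.7, 24.1 and 24.1 FPKM in si-Control replicates 1, 2 and 3. Its groups were narrowly apart. For AAR2 the log2 fold change was 0.04 ± 0.04, with a 95% interval of -0.04 to 0.13 (limma adjusted p = 0.390). A change of AAR2 as large as that of PRPF8, in either direction, lay outside this interval.

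**Figure D2:**
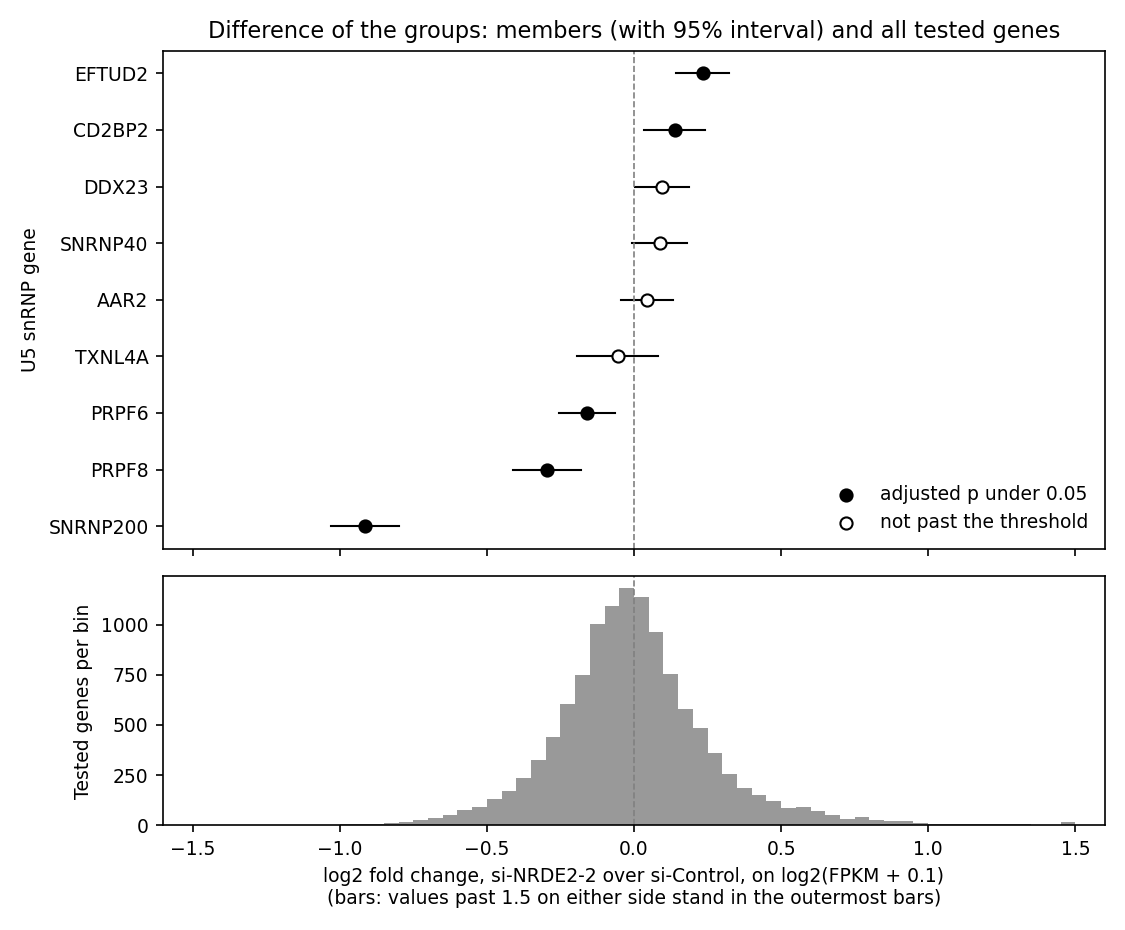
Upper panel, log2 fold change of si-NRDE2-2 over si-Control (horizontal axis) of each U5 snRNP gene with its 95% interval, filled where the adjusted p was under 0.05. Lower panel, number of the 11782 tested genes in each bin of the same axis. SNRNP200 at -0.91 lies in the lower tail, and the other 8 members, from -0.29 to 0.23, lie in the body of the distribution.

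The fall of SNRNP200 changed its place among the U5 genes. By mean FPKM it stood 8th of 9 with si-NRDE2-2, above only CD2BP2, and 2nd of 9 with si-Control, below only PRPF8. With si-NRDE2-2 the order was PRPF8, EFTUD2, PRPF6, TXNL4A, SNRNP40, AAR2, DDX23, SNRNP200 and CD2BP2, and the ranges of neighbours did not overlap. With si-Control the order was PRPF8, SNRNP200, PRPF6, EFTUD2, TXNL4A, SNRNP40, AAR2, DDX23 and CD2BP2, and the ranges of SNRNP200 and PRPF6, of EFTUD2 and TXNL4A, and of SNRNP40 and AAR2 overlapped. Such an order rests on the transcript lengths the authors used, which are not given in the sources used here.

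The FPKM ratio of SNRNP200 to PRPF8, whose proteins sit together in the particle, was 0.427, 0.423 and 0.413 in si-NRDE2-2 replicates 1, 2 and 3, against 0.653, 0.646 and 0.645 in si-Control replicates 1, 2 and 3. The ratio was nearly the same in all libraries of a group, si-Control replicate 3 included, although both genes were lowest of the controls there. Its mean was 0.421 ± 0.00694 with si-NRDE2-2 and 0.648 ± 0.00440 with si-Control (SD, n = 3 each). The mean log2 ratio differed by -0.62, with p = 0.1 in a two-sided exact permutation test, the smallest p that 3 against 3 libraries allow. Summed over the 9 genes, FPKM was 259 ± 2.15 with si-NRDE2-2 and 283 ± 5.40 with si-Control, and SNRNP200 made up 8.01% ± 0.0938 of it with si-NRDE2-2 and 13.9% ± 0.811 with si-Control (SD, n = 3 each).

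**Figure D3:**
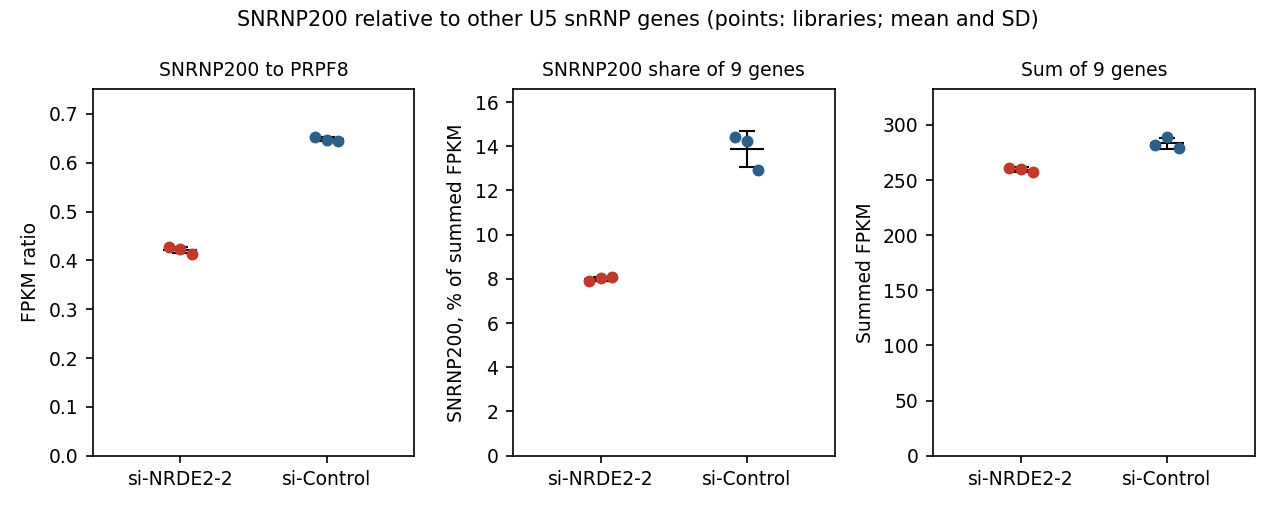
From left, the FPKM ratio of SNRNP200 to PRPF8, the share of SNRNP200 in the summed FPKM of the 9 genes, and that sum, each by library (points) with mean and SD. The si-NRDE2-2 libraries have ratios of 0.413 to 0.427 and the si-Control libraries 0.645 to 0.653.

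The genes whose 6 values followed those of SNRNP200 most closely were found by the root mean square distance of log2(FPKM + 0.1), each gene centred on its si-Control mean, among tested genes with a mean of at least 5 FPKM. They were TACC1 (distance 0.0391), the nucleoporin gene NUP85 (0.0561), the condensin II gene NCAPG2 (0.0647), HAUS5 of the augmin complex (0.0684) and ALAD (0.0692). TACC1 had 9.02, 9.21 and 9.50 FPKM in si-NRDE2-2 cells, against 18.9, 18.0 and 16.7 FPKM in si-Control cells. NUP85 had 17.6, 17.2 and 17.0 FPKM in si-NRDE2-2 cells, against 32.7, 34.3 and 32.6 FPKM in si-Control cells. These genes were picked for sharing the difference between groups, so the likeness is a description.

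The other genes of the U5 pathway were looked at in 5 lists, and their changes were smaller than that of SNRNP200 and went both ways. In the U4/U6 and tri-snRNP list, 3 of 8 genes were higher and 1 was lower by limma's adjusted p, with a median log2 fold change of 0.07. Among all tested genes 20.9% were higher and 23.0% lower. PRPF4, a U4/U6 protein, had 24.6 ± 0.868 FPKM with si-NRDE2-2 and 19.4 ± 0.979 FPKM with si-Control (SD, n = 3 each; limma adjusted p = 2.7e-04). SNRNP27 rose by 0.18 ± 0.05 and USP39 by 0.15 ± 0.04, whereas PRPF31, which binds the U4 5′ stem-loop and is also a retinitis pigmentosa gene, changed by -0.16 ± 0.05 (limma adjusted p = 0.0248). PRPF31 did not pass when si-Control replicate 2 or 3 (adjusted p = 0.0758 and 0.0593) or si-NRDE2-2 replicate 2 or 3 (0.0794 and 0.108) was left out, nor did USP39 when si-Control replicate 1 or 2 was (0.0591 and 0.0693).

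The Sm proteins form the ring on the U5 snRNA that U1, U2 and U4 also carry. Of 7 genes 3 were higher and 0 lower by limma's adjusted p, with a median of 0.09, against 20.9% higher and 23.0% lower among all tested genes. At an unadjusted p under 0.05 the counts were also 3 and 0, against 24.4% higher and 27.4% lower among all tested genes. SNRPD3 had 26.5 ± 0.471 FPKM with si-NRDE2-2 and 22.8 ± 0.544 FPKM with si-Control, and SNRPD1 and SNRPG each rose by 0.17 ± 0.05. Many processed pseudogenes resemble SNRPG, and the authors' counting of shared reads is not given in their labels. The calls of SNRPG (adjusted p = 0.0709 and 0.0520 without si-Control replicate 1 or 2, 0.0749 and 0.0667 without si-NRDE2-2 replicate 2 or 3) and SNRPD1 (0.0678 without si-NRDE2-2 replicate 2) depended on single libraries.

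U5 assembly also needs the R2TP chaperone complex and its U5 adaptors. Of 7 genes 2 were higher and 0 lower by limma's adjusted p, against 20.9% higher and 23.0% lower among all tested genes. Their median was 0.00. PIH1D1, an R2TP subunit, rose the most of the other pathway genes, with 70.9, 67.0 and 65.6 FPKM in si-NRDE2-2 cells, against 47.6, 45.7 and 51.7 FPKM in si-Control cells (log2 fold change 0.49 ± 0.05, limma adjusted p = 3.5e-05). ECD, an adaptor between PRPF8 and R2TP, rose by 0.13 ± 0.04, but did not pass when si-Control replicate 1 or 2 (adjusted p = 0.0889 and 0.0648) or si-NRDE2-2 replicate 2 or 3 (0.109 and 0.112) was left out. At an unadjusted p under 0.05 by limma, which 27.4% of all tested genes passed as lower, 2 genes were lower. They were the ATPases RUVBL1 and RUVBL2, which did not pass the adjusted threshold, with log2 fold changes of -0.10 ± 0.04 and -0.13 ± 0.05 (limma adjusted p = 0.0739 and 0.0563).

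**Figure D4:**
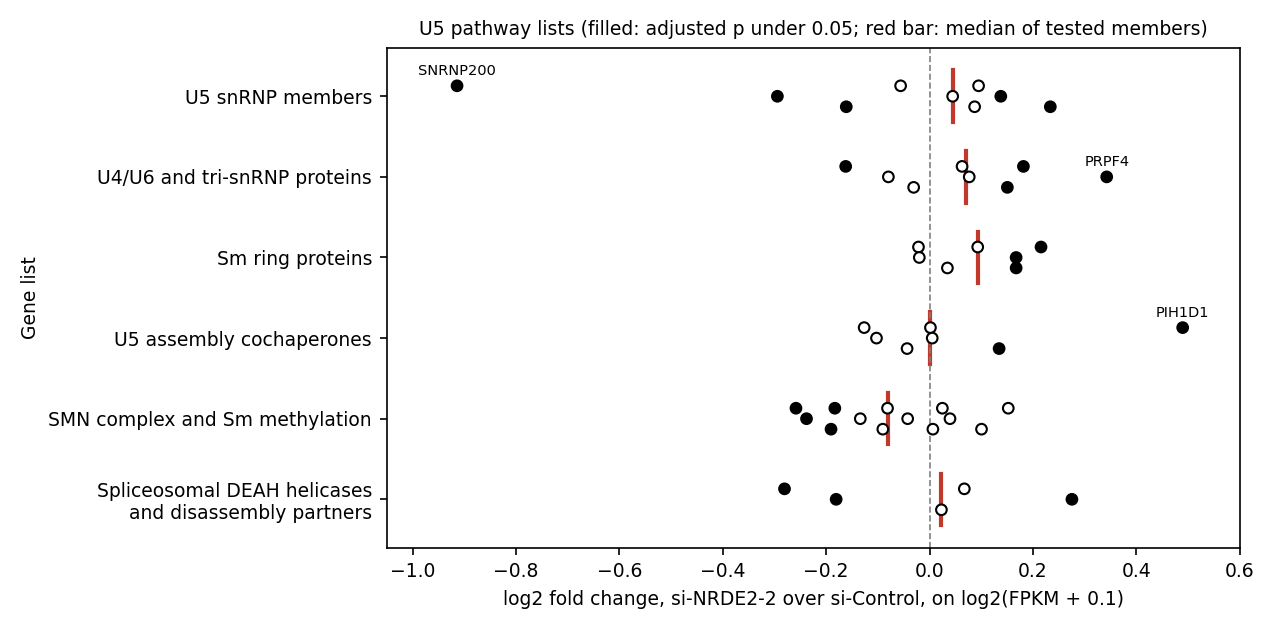
Log2 fold change of si-NRDE2-2 over si-Control (horizontal axis) of each tested gene of the U5 snRNP and of 5 other lists (rows). Filled points passed an adjusted p of 0.05, red bars are list medians, and genes past 0.3 in either direction are named, from SNRNP200 at -0.91 to PIH1D1 at 0.49.

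The SMN complex loads the Sm ring onto snRNAs, and the methylosome methylates Sm proteins. Of 13 genes 4 were lower and 0 higher by limma's adjusted p, against 23.0% lower and 20.9% higher among all tested genes. Their median was -0.08. At an unadjusted p under 0.05 by limma 5 of the 13 were lower and 1 higher, against 27.4% lower and 24.4% higher among all tested genes. GEMIN2 had 14.2 ± 0.116 FPKM with si-NRDE2-2 and 17.1 ± 0.951 FPKM with si-Control (SD, n = 3 each; limma adjusted p = 0.0017). GEMIN5, which recognises the snRNA, fell by 0.24 ± 0.05, and the methylosome genes WDR77 and PRMT5 fell by 0.19 ± 0.04 and 0.18 ± 0.04. SMN1 and SMN2, near-identical copies whose reads can be split either way, did not pass (limma adjusted p = 0.193 and 0.117).

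Of the DEAH helicases that act after SNRNP200 and their disassembly partners, 5 of 6 were tested. By limma's adjusted p 1 was higher and 2 were lower, against 20.9% higher and 23.0% lower among all tested genes. DHX8, which releases the mRNA, rose by 0.28 ± 0.05, whereas DHX15, which takes the spliceosome apart, fell by 0.18 ± 0.05 and GCFC2 fell by 0.28 ± 0.07. The call of DHX15 was lost without si-Control replicate 2 (adjusted p = 0.0556). DHX16 is listed at 0 in every library, which in this table can be a failed estimate, since the ribosomal protein gene RPS18 is listed at 0 too. The rows RNU5D-1, RNU5E-1 and RNU5F-1 for U5 snRNA are likewise listed at 0 in these mRNA libraries. RNU5A-1 and RNU5B-1 were looked for and had no row, so these data hold no measure of the U5 snRNA itself.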

How the data were processed

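RNA-seq of 6 libraries, 3 per group, was read from 1 table of FPKM values that the authors deposited. Per the labels' protocols, libraries were made with a stranded mRNA kit. The submitters' processing notes name the hg19 build, STAR 2.5.1b and DESeq2 1.10.1, with no role given. That the values are FPKM is known from an earlier description of these data. The program, annotation and strand setting behind them are not spelled out in the sources used here. Columns were matched to samples through the labels. Another 4 columns were not used.

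The tested genes (11782) reached 1 FPKM in 3 or more libraries, and small RNA rows were left out. In R 4.3.3, limma 3.58.1 was run on log2(FPKM + 0.1) with group as its term and a trended, robust prior, after a check on simulated data. Low FPKM values come in multiples of 1 fragment, which gave the depth (absolute scale from 453 genes, so approximate). Gene lengths came from GENCODE release 29 and promoters from RefSeq, which held all 9 members.

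All 9 members are named, with up to 4 called genes of each other list by smallest adjusted p and the 5 genes nearest to SNRNP200. RUVBL1, RUVBL2, SMN1, SMN2 and DHX16 were named after their values were seen. The members and lists were chosen with earlier results of these data known. Other pseudocounts, filters and scalings, no variance trend, a replicate block, removal of GC and length trends and leaving out each library were tried.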

Additional observations from a re-analysis of the deposited data

How the results depend on the processing

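Across 17 alternatives, SNRNP200, PRPF8 and EFTUD2 kept their direction and their call in each, with log2 fold changes of -0.97 to -0.88, -0.35 to -0.26 and 0.22 to 0.26. PRPF6 kept its call in 16 and CD2BP2 in 10, AAR2 and TXNL4A passed in 0 of them (adjusted p from 0.0760 and 0.126), and the log2 fold change of TXNL4A turned to 0.019 without si-Control replicate 3. With libraries scaled to the same FPKM total, 1 member was higher (CD2BP2 adjusted p = 0.0698), 2 cochaperones were lower and 1 higher, and 1 SMN gene was higher. Quantile normalization gave 2 lower cochaperones, and scaling by the median ratio 1 higher SMN gene. With GC and length trends removed, 4 members were higher, DDX23 and SNRNP40 being added (limma adjusted p = 0.0067 and 0.0336). In that setting 5 tri-snRNP genes, 2 DEAH genes and 1 SMN gene were higher and 2 cochaperones lower. Calls over all tested genes also grew there, to 3258 higher and 3189 lower, against 2465 and 2715 in the main fit. With no filter on low values or no variance trend 0 tri-snRNP genes were lower. Over all tested genes, 4752 were called with the same FPKM total, 5432 with quantile normalization and 5135 with the median ratio. The number was 4913 with no filter and 4942 with no variance trend, against 5180 in the main fit. The cause of these shifts was not tested.

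When single libraries were left out, 1 to 2 members were higher and 2 to 3 lower. In the lists, 0 to 1 tri-snRNP genes were lower, 1 to 4 Sm genes higher, and 1 to 2 cochaperones higher and 0 to 1 lower. For SMN genes 0 to 1 were higher, and 1 to 2 DEAH genes were lower. Over all tested genes these fits called 1918 to 2674 higher and 2007 to 2815 lower, against 2465 and 2715 in the main fit. An exact test of the ratio of SNRNP200 to PRPF8 could not go below 0.1 in any setting, and its log2 difference ran from -0.63 to -0.60. Samples share only a replicate number: deviations of same-numbered libraries correlated at -0.12, 0.11 and -0.12. Pairs with unlike numbers ran from -0.11 to 0.17, the highest being si-NRDE2-2 replicate 1 with si-Control replicate 3. With the replicate number as a block, 4683 genes were called in place of 5180, 1 member was higher (CD2BP2 adjusted p = 0.0612), 0 tri-snRNP genes were lower and 1 cochaperone was higher. With a mean of at least 5 FPKM required NRDE2 was not tested. The pseudocount set the size of the NRDE2 change, -2.08 with 1 and -4.13 with 0.01. Keeping small RNA rows was added after seeing the data and changed no call of a member.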
